A study of Mus musculus with 29 samples.

Results

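The 8 MHC class II genes described here are the invariant chain gene Cd74, the classical class II chain genes H2-Aa, H2-Ab1 and H2-Eb1, the peptide editor genes H2-DMa, H2-DMb1 and H2-DMb2, and Ciita, the gene of the class II transactivator. They were chosen by gene symbol from the 36982 genes of the deposited count table, and all 8 passed the filter on low counts that left 16632 genes for testing. The samples are microglia, the resident macrophages of the brain, sorted from male C57BL/6J mice and measured by bulk RNA sequencing, 29 libraries in 6 groups. The study compared first and repeated responses to lipopolysaccharide (LPS), a bacterial cell wall component, in microglia that had or had not been depleted and replaced in between.

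Mice were 10 weeks old at a first intraperitoneal injection and 15 weeks old at a second, given 5 weeks later, and all brains were taken 3 h after the second. An injection was either buffered saline (P) or LPS at 1 mg/kg (L). Starting 1 week after the first injection, mice were gavaged for 5 days with BLZ945 at 169 mg/kg per day (B) or with its cyclodextrin vehicle. BLZ945 inhibits CSF1R, the receptor that microglia need to survive, and microglia grow back when it is withdrawn. In group names the letters stand for the first injection, the depletion and the second injection. PP (n = 5) had saline, vehicle and saline, and PBP (n = 5) had saline, BLZ945 and saline. PL (n = 4) had saline, vehicle and LPS, and PBL (n = 5) had saline, BLZ945 and LPS. LL (n = 5) had LPS, vehicle and LPS, and LBL (n = 5) had LPS, BLZ945 and LPS. Cells were gated as high for CD11b, intermediate for CD45 and negative for Ly6C, a gate that brain border macrophages can enter in part. The labels name each sample only by group and number, and the p-values below cover only the spread among samples of one group.

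MHC class II molecules are pairs of an alpha and a beta chain that show peptides from the endosome to CD4 T cells. The invariant chain CD74 holds newly made pairs together and blocks their groove, cathepsins trim it down to a short fragment, and the H2-DM heterodimer exchanges that fragment for antigenic peptide. CIITA binds no DNA itself. It docks on RFX, CREB and NF-Y factors that sit side by side on class II promoters, and interferon-gamma is its best known inducer outside professional antigen presenting cells. Resting microglia are known for low class II, which rises with ageing, demyelination and interferon-gamma, while border-associated macrophages and dendritic cells hold more of it.

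The promoters of H2-Aa, H2-Eb1, H2-DMb1 and H2-DMb2 hold a like arrangement of short motifs, shown here because the factors that bind them are read further on. Promoter sequences from RefSeq (GRCm38.p6, a build other than that of the counts, GRCm39) were at hand for 5 of the 8 genes, namely H2-Aa, H2-Eb1, H2-DMa, H2-DMb1 and H2-DMb2. Capitals mark CTNNNAAC, the shared letters of the X box that RFX binds, and ATTGG, the inverted CCAAT of the Y box that NF-Y binds. Both motifs were written after these promoters had been read. Each line gives the strand of the gene 5′ to 3′.
H2-Aa, chr17:34287857-34287917, minus strand: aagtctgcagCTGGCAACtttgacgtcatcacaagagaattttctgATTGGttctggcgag
H2-Eb1, chr17:34305763-34305822, plus strand: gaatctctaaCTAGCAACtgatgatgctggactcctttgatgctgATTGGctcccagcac
H2-DMb1, chr17:34153084-34153144, plus strand: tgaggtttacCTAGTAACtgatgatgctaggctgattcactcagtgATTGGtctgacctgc
H2-DMb2, chr17:34145113-34145173, plus strand: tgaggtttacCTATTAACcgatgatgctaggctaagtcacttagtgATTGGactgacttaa
The gap between the motifs was 28 bases in H2-Aa, H2-DMb1 and H2-DMb2 and 27 bases in H2-Eb1. In H2-Aa the X motif began 84 bases before the transcription start, in H2-Eb1 94, in H2-DMb1 97 and in H2-DMb2 126. Over the 250 bases before the start of 32851 mouse promoters, read on both strands, CTNNNAAC was found in 35.7% and ATTGG in 33.8%. The ordered pair with 20 to 30 bases between was found in 137 of them, 0.417%. The promoter of H2-DMa held no such pair in this window. Among the other genes listed for this work, H2-Ob and Ifngr1 held it. A match to these letters is a description and not evidence of binding.

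Total counts per library lay between 5670450 and 12671476. The microglia label was checked on 10 marker genes, which were counted in every library and summed to between 32452 and 71573 CPM (counts scaled to a common library size with the TMM correction). The cells went through 2 sorters on 5 days. All PP libraries were sorted on day 5 and all PBL libraries on day 3, PBP replicates 1 to 4 on day 4 and PBP replicate 5 on day 3. PL was split over days 4 and 5, and LL and LBL over days 1 and 2. Days 1 to 3 used the XDP instrument, and days 4 and 5 the Astrios. No day or sorter held libraries of LL or PBL together with libraries of PL or PP, so in those comparisons the day and the group cannot be told apart. PBP and PP, LBL and PBL, and LBL and PBP shared no day either, so the same holds for the day there. A library that holds less RNA of a gene may hold fewer cells of the type that makes it or less RNA per cell, and bulk counts do not separate these.

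On a scale per kilobase of transcript, which allows genes to be compared, Cd74 was the most abundant of the 8 in PP with a mean of 284 CPM per kilobase. H2-DMa followed with 206 and H2-Ab1 with 202, then H2-DMb1 with 114, H2-Aa with 81.1 and H2-Eb1 with 33.9. H2-DMb2 stood at 6.75 and Ciita at 0.283. The transactivator was thus the least abundant by far, with 2 to 21 counts in a library.

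**Figure D1:**
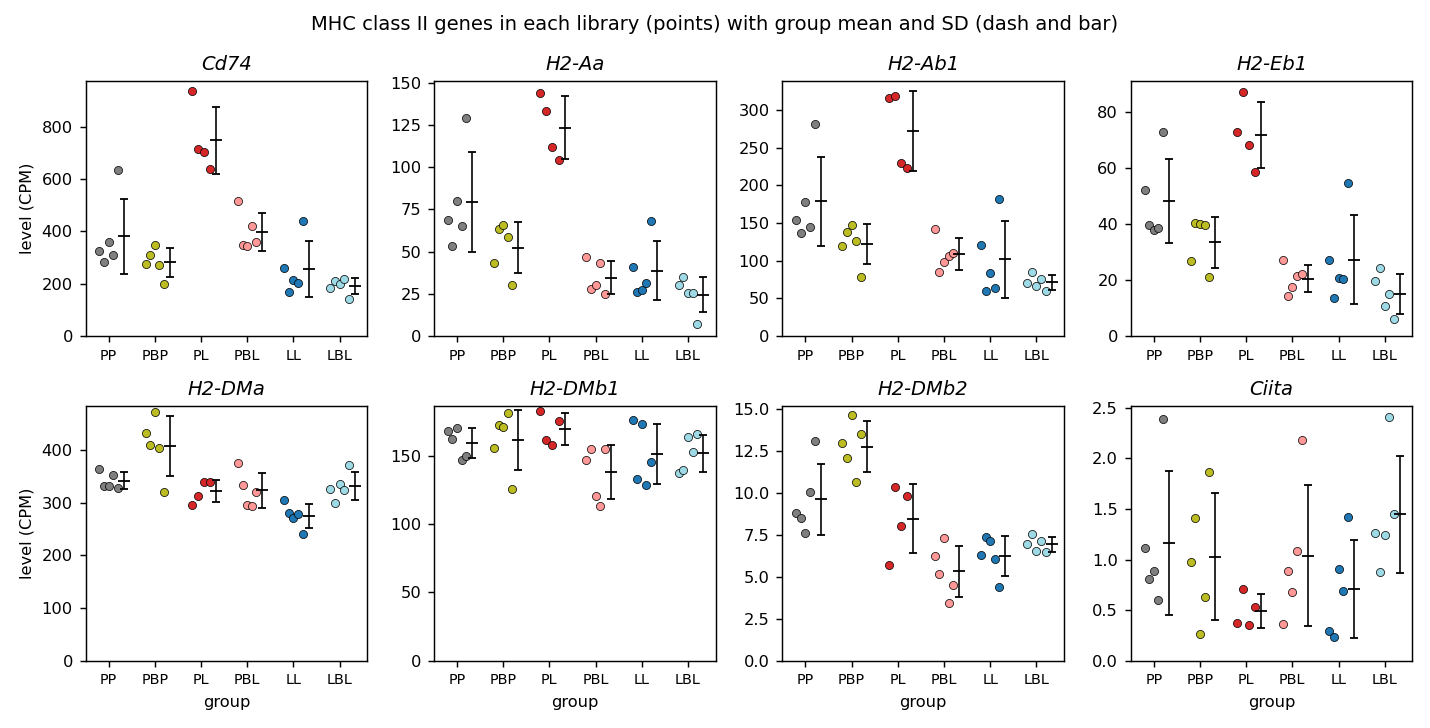
Level of each class II gene in CPM (vertical axis, from 0) in the 6 groups, with 1 point per library and the group mean and SD as a dash and bar. Cd74, H2-Aa, H2-Ab1 and H2-Eb1 have their highest mean in PL, H2-DMb1 stays between 113 and 183 CPM, and Ciita stays below 2.5 CPM.

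Cd74, whose product is the chaperone of new class II pairs, had levels of 324, 283, 358, 309 and 634 CPM in the PP libraries and of 934, 715, 702 and 639 CPM in the PL libraries. In PBP it had 276, 311, 347, 272 and 200.4 CPM, and in PBL 517, 347, 345, 419 and 358 CPM. In LL it had 261, 169, 215, 203 and 438 CPM, and in LBL 184, 209.6, 201, 218 and 142 CPM. All PL libraries lay above every library of the other groups. PP replicate 5 and LL replicate 5 lay well above the rest of their groups. By group mean the order was PL, PBL, PP, PBP, LL and LBL, and only PL was separate from its neighbour in that order.

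H2-Aa, the alpha chain of the I-A molecule, had 68.9, 53.1, 80.0, 65.0 and 129 CPM in PP and 144, 133, 112 and 104 CPM in PL. In PBP it had 43.2, 63.7, 65.6, 58.9 and 30.1 CPM, and in PBL 46.6, 27.9, 30.1, 43.3 and 24.9 CPM. In LL it had 40.6, 26.2, 27.3, 31.7 and 68.1 CPM, and in LBL 30.3, 34.7, 25.4, 25.3 and 7.23 CPM. PL was again high, overlapping only PP replicate 5, and LBL replicate 5 was the lowest library of all 29.

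H2-Ab1, the beta chain that pairs with it, had 155, 137, 177, 145 and 281 CPM in PP and 316, 319, 230.2 and 223 CPM in PL. In PBP it had 119.6, 139, 148, 126 and 78.1 CPM, and in PBL 143, 84.6, 98.9, 107 and 111 CPM. In LL it had 121, 59.6, 83.5, 63.5 and 182 CPM, and in LBL 70.5, 84.7, 66.2, 75.7 and 59.4 CPM. The same 2 libraries, PP replicate 5 and LL replicate 5, were the highest of their groups.

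H2-Eb1, the beta chain of the I-E molecule, had 52.0, 39.5, 37.8, 38.5 and 73.0 CPM in PP and 72.9, 87.0, 68.3 and 58.6 CPM in PL. In PBP it had 26.7, 40.4, 39.9, 39.5 and 21.0 CPM, and in PBL 27.2, 14.4, 17.7, 21.4 and 22.0 CPM. In LL it had 27.2, 13.7, 20.6, 20.5 and 54.7 CPM, and in LBL 19.6, 24.2, 10.7, 14.9 and 5.93 CPM. Its alpha chain partner H2-Ea, which C57BL/6 mice are known not to express, had 0 counts in all 29 libraries. For H2-Aa, H2-Ab1 and H2-Eb1 every group overlapped its neighbour in the order of means, which ran from PL through PP and PBP down to LBL, with PBL and LL between.

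Of the peptide editor genes, H2-DMa and H2-DMb1 had narrower ranges. H2-DMa, the alpha chain of H2-DM, had means ± SD of 342 ± 16.2 CPM in PP (n = 5) and 408 ± 56.2 CPM in PBP (n = 5). With LPS its means ± SD were 322 ± 21.3 CPM in PL (n = 4) and 324 ± 33.3 CPM in PBL (n = 5), then 275 ± 23.2 CPM in LL (n = 5) and 332 ± 26.1 CPM in LBL (n = 5). H2-DMb1, a beta chain of H2-DM, stayed between 113 and 183 CPM in all 29 libraries. Ciita lay between 0.23 and 2.41 CPM, with overlapping ranges in all neighbouring groups.

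H2-DMb2, the second beta chain gene, was low and less even. It had 8.80, 8.50, 7.59, 10.1 and 13.1 CPM in PP and 12.97, 12.1, 14.6, 10.6 and 13.5 CPM in PBP. In PL it had 5.72, 10.3, 8.05 and 9.79 CPM, and in PBL 6.27, 5.15, 7.31, 3.41 and 4.51 CPM. In LL it had 6.28, 7.35, 7.13, 6.09 and 4.38 CPM, and in LBL 6.94, 7.58, 6.52, 7.12 and 6.51 CPM. The PBP libraries were high, and all of them lay above every PBL, LL and LBL library. The H2-DMb1 and H2-DMb2 messenger RNAs in GENCODE M21 agree at 1042 of 1094 aligned bases, 95.2%, and 27.2% of the 50-base stretches of H2-DMb1 also occur in H2-DMb2. How reads that fit both were counted is not given in the sources used here, so the H2-DMb2 values are uncertain.

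After the first LPS injection without depletion, PL against PP, Cd74 was higher and no other class II gene was called at an adjusted p under 0.05. Differences are given as log2 fold changes with their standard error (SE) from edgeR's quasi-likelihood test, and p-values were adjusted by Benjamini and Hochberg's method for the 16632 genes tested. Of all genes tested, 26.2% were called in this comparison and 14.2% were called higher, beside 1 of the 8. Cd74 was 1.96-fold higher in PL, a log2 difference of 0.97 (SE 0.23, adjusted p = 0.0021), and the PL and PP libraries did not overlap, which held for 21.8% of all genes tested. H2-Aa differed by 0.64 (SE 0.32, adjusted p = 0.15), H2-Ab1 by 0.60 (SE 0.25, adjusted p = 0.08) and H2-Eb1 by 0.57 (SE 0.32, adjusted p = 0.2). The H2-DM genes differed by between -0.19 and 0.09, and Ciita by -1.24 (SE 0.66, adjusted p = 0.18). The median over the 8 genes was 0.33 on the log2 scale, beside 0.00 over all genes tested.

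These values turn on PP replicate 5. Without it Cd74 differed by 1.23, H2-Aa by 0.89 (adjusted p = 0.042) and H2-Ab1 by 0.82 (adjusted p = 0.0125), and 3 of the 8 genes were called. On day 5, the only day that held both groups, Cd74 was higher in PL by 0.82 (adjusted p = 0.041 in the edgeR test). H2-Aa was higher by 0.46, H2-Ab1 by 0.35 and H2-Eb1 by 0.41, and of these genes only Cd74 was called. That fit holds 2 PL libraries, replicates 3 and 4, and takes the spread from the other groups too. They had 702 and 639 CPM of Cd74, beside 634 CPM in PP replicate 5. PL replicate 3 had the lowest RNA quality number of the 29 libraries, 6.5. In PL against PP, 7 of 10 microglia markers were lower, 1 of 8 astrocyte markers was higher and 0 of 10 neuron markers were called, and their part was not tested.

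In mice that had been depleted and repopulated, PBL against PBP, H2-DMb2 and H2-DMa were lower after the first LPS injection, and Cd74 was not called. PBP replicates 1 to 4 differed from PBL in day and sorter as well as in LPS. The background was high here, with 43.1% of all genes called and 21.5% called lower. H2-DMb2 was 2.40-fold lower in PBL, a log2 difference of -1.26 (SE 0.22, adjusted p = 1.9e-05), and the groups did not overlap, as for 24.1% of all genes tested. H2-DMa differed by -0.33 (SE 0.09, adjusted p = 0.0038). Cd74 differed by 0.50 (SE 0.22, adjusted p = 0.069), H2-Aa by -0.60 (SE 0.32, adjusted p = 0.12), H2-Ab1 by -0.17 (SE 0.24, adjusted p = 0.61) and H2-Eb1 by -0.71 (SE 0.32, adjusted p = 0.072). None of these 4 passed the test, and with the sorter in the fit H2-Aa at 0.19 and H2-Ab1 at 0.48 had the sign of Cd74, at 0.99, while H2-Eb1 was at -0.029. Cd74 passed in 5 of 9 alternatives, among them DESeq2 (0.55, adjusted p = 0.045), limma voom (0.50, adjusted p = 0.037) and edgeR with RLE size factors (0.55, adjusted p = 0.049). Without PBP replicate 5, the only PBP library sorted on the day and instrument of PBL, H2-Eb1 at -0.83 (adjusted p = 0.034) and H2-DMb1 at -0.30 (adjusted p = 0.022) were called too. With PBP replicate 5 as the only PBP library, on the sorter of PBL, H2-DMa differed by 0.04, H2-Aa by 0.22 and H2-Ab1 by 0.50, and H2-DMb2 was the only class II gene called. That edgeR fit takes the spread from the other groups and assumes that the lone library varies like them. In PBL against PBP, 8 of 10 neuron markers and 6 of 8 astrocyte markers were higher and 9 of 10 microglia markers lower. All 7 tested neutrophil markers were higher, and of 6 tested monocyte markers 4 were higher and 1 was lower. The part of all these markers was not tested.

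Whether depletion changed the response to the first LPS injection was tested as the difference between these 2 responses, (PBL - PBP) - (PL - PP). No class II gene was called by edgeR, DESeq2 or limma voom, and 4 of the 8 had an unadjusted p under 0.05 in edgeR. Of all genes tested 0% were called by edgeR, where 2120 had an unadjusted p under 0.05, while DESeq2 called 63. The differences of response were -1.24 for H2-Aa (95% interval -2.16 to -0.32, adjusted p = 0.26), -1.28 for H2-Eb1 (-2.20 to -0.36, adjusted p = 0.25), -0.77 for H2-Ab1 (-1.49 to -0.05, adjusted p = 0.36) and -0.47 for Cd74 (-1.13 to 0.18, adjusted p = 0.54). H2-DMb2 differed by -1.07 (-1.71 to -0.43, adjusted p = 0.19). These intervals are wide and are not adjusted for the number of genes. Without PBP replicate 5 the number of genes called was 740, with none of the 8 among them.

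**Figure D2:**
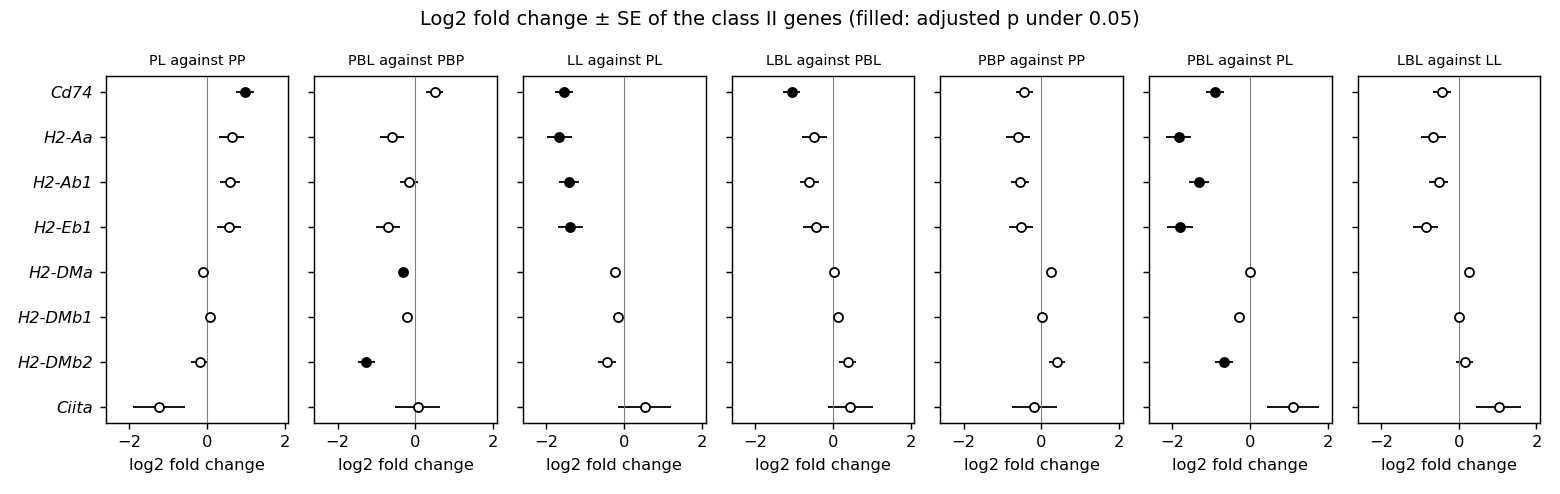
Log2 fold change of each class II gene with its SE (horizontal axis) in 7 comparisons, filled where the adjusted p was under 0.05. In LL against PL the 4 genes Cd74, H2-Aa, H2-Ab1 and H2-Eb1 are filled and lie between -1.67 and -1.39, and in PBP against PP and LBL against LL none is filled.

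In LL against PL, the comparison of repeated with single LPS in mice without depletion, Cd74, H2-Aa, H2-Ab1 and H2-Eb1 were all lower in LL, while the H2-DM genes and Ciita were not called. Of all genes tested 2.78% were called, and 2.03% were called lower, beside 4 of the 8 class II genes. Cd74 was 2.91-fold lower, a log2 difference of -1.54 (SE 0.23, adjusted p = 0.00011), and H2-Aa was 3.18-fold lower, a difference of -1.67 (SE 0.33, adjusted p = 0.0028). H2-Ab1 differed by -1.42 (SE 0.26, adjusted p = 0.00095) and H2-Eb1 by -1.39 (SE 0.32, adjusted p = 0.013). For each of these genes the highest LL library, replicate 5, lay below the lowest PL library, a separation seen in 5.53% of all genes tested. H2-DMa differed by -0.23, H2-DMb1 by -0.16, H2-DMb2 by -0.43 and Ciita by 0.53, with adjusted p-values of 0.23 or more. The median over the 8 genes was -0.91, beside 0.01 over all genes tested.

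The 4 calls held when any 1 library was left out. All PL libraries came from the Astrios and all LL libraries from the XDP, and no day held both. With the sorter in the fit, a term that rests on PBP replicate 5 alone, Cd74 differed by -0.95 (adjusted p = 0.38), H2-Aa by -0.73 (0.66), H2-Ab1 by -0.65 (0.60) and H2-Eb1 by -0.59 (0.74). None of the 4 was then called, and the genes called over the whole table fell from 463 to 11. In LL against PL, 3 of 10 neuron markers and 1 of 8 astrocyte markers were higher and 0 of 10 microglia markers were called, and their part was not tested.

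In repopulated microglia the same comparison, LBL against PBL, found Cd74 lower and no other class II gene called, where 6.74% of all genes were called and 4% were called lower. Cd74 was 2.08-fold lower in LBL, a log2 difference of -1.06 (SE 0.22, adjusted p = 0.0032), and every LBL library lay below every PBL library, as in 7.11% of all genes tested. H2-Ab1 differed by -0.61 (SE 0.25, adjusted p = 0.15), H2-Aa by -0.48 (SE 0.32, adjusted p = 0.45) and H2-Eb1 by -0.43 (SE 0.33, adjusted p = 0.52). H2-DMb2 differed by 0.39, Ciita by 0.45, H2-DMb1 by 0.14 and H2-DMa by 0.04. Both groups were sorted on the XDP, on different days, so the day and the group cannot be told apart. The Cd74 call held when any 1 library was left out. In LBL against PBL all 7 tested neutrophil markers and 3 of 6 tested monocyte markers were lower. Of the neuron, astrocyte and microglia markers 0 were called. The part of all these markers was not tested.

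The effect of the earlier LPS was then compared between the 2 settings, (LBL - PBL) - (LL - PL). No class II gene was called by edgeR, DESeq2 or limma voom, and 4 of the 8 had an unadjusted p under 0.05 in edgeR. Over the whole table edgeR called 4 genes, 0.0241%. The differences were 1.19 for H2-Aa (95% interval 0.25 to 2.13, adjusted p = 0.26), 0.96 for H2-Eb1 (0.01 to 1.90, adjusted p = 0.34), 0.81 for H2-Ab1 (0.08 to 1.53, adjusted p = 0.3) and 0.48 for Cd74 (-0.17 to 1.14, adjusted p = 0.48). The call of 4 class II genes in one setting and of 1 in the other is therefore not shown to be a difference between the settings.

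Depletion itself was compared 3 times. In saline-injected mice, PBP against PP, no class II gene was called by edgeR, DESeq2 or limma voom, and 0.529% of all genes were called by edgeR. No day held both groups, so depletion and day cannot be told apart there. H2-Ab1 and H2-DMa, 2 of the 8, had an unadjusted p under 0.05, beside 1991 of all genes tested. Cd74 differed by -0.44 (SE 0.22, adjusted p = 0.44), H2-Ab1 by -0.55 (SE 0.24, adjusted p = 0.34), H2-DMa by 0.25 (SE 0.09, adjusted p = 0.23) and H2-DMb2 by 0.41 (SE 0.21, adjusted p = 0.46).

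After a first LPS injection, PBL against PL, 5 of the 8 genes were lower in the repopulated microglia, where 22.1% of all genes were called and 11.1% were called lower. H2-Aa was 3.58-fold lower, a log2 difference of -1.84 (SE 0.33, adjusted p = 0.00075), and H2-Eb1 3.48-fold lower, a difference of -1.80 (SE 0.33, adjusted p = 0.0008). H2-Ab1 differed by -1.32 (SE 0.26, adjusted p = 0.0011), Cd74 by -0.91 (SE 0.23, adjusted p = 0.0077) and H2-DMb2 by -0.67 (SE 0.23, adjusted p = 0.038). The groups did not overlap for Cd74, H2-Aa, H2-Ab1, H2-Eb1 and H2-DMb1, as for 16.3% of all genes tested. PBL and PL differed in day and in sorter, and with the sorter in the fit none of the 5 was called: Cd74 differed by -0.32 (adjusted p = 0.96), H2-Aa by -0.90 (0.89), H2-Ab1 by -0.56 (0.92), H2-Eb1 by -0.997 (0.88) and H2-DMb2 by -0.77 (0.87), and 3 genes in all were called in place of 3673. The H2-DMb2 call was also lost without PL replicate 2 (-0.57, adjusted p = 0.12), PL 3 (-0.67, 0.056), PL 4 (-0.57, 0.12), PBL 2 (-0.66, 0.064), PBL 4 (-0.54, 0.12) or PBL 5 (-0.61, 0.083). Other cell markers moved in this comparison too. Of the neuron markers 10 of 10 were higher, and of the microglia markers 7 of 10 were lower. Of the 8 astrocyte markers 6 were higher and 1 was lower. All 7 tested neutrophil markers were higher, and 3 of 6 tested monocyte markers. The summed astrocyte markers overlapped, at 685 to 901 CPM in PBL and 749 to 1020 CPM in PL. The part of all these markers in the class II differences was not tested.

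After 2 LPS injections, LBL against LL, no class II gene was called by edgeR, where 1.21% of all genes were called. In that test 3 of the 8 had an unadjusted p under 0.05, beside 2119 of all genes tested. DESeq2 called H2-DMa at 0.29 (adjusted p = 0.022). Cd74 differed by -0.43 (SE 0.22, adjusted p = 0.43), H2-Aa by -0.65 (SE 0.32, adjusted p = 0.4), H2-Ab1 by -0.51 (SE 0.24, adjusted p = 0.37), H2-Eb1 by -0.84 (SE 0.32, adjusted p = 0.23) and H2-DMa by 0.27 (SE 0.09, adjusted p = 0.15). These groups were the only pair sorted together on 2 days, and the 2 days were unlike. On day 1 LL replicate 5 had 438 CPM of Cd74 and 182 CPM of H2-Ab1, and the 4 LBL libraries had 184 to 218 CPM of Cd74 and 66.2 to 84.7 CPM of H2-Ab1. On day 2 LBL replicate 5 had 142 CPM of Cd74 and 59.4 CPM of H2-Ab1, and the 4 LL libraries had 169 to 261 CPM of Cd74 and 59.6 to 121 CPM of H2-Ab1. An edgeR fit to the LL and LBL libraries alone, with the day as a term, gave other values. There the log2 differences were -0.85 for Cd74 (adjusted p = 0.0056), -1.59 for H2-Aa (0.0016) and -0.89 for H2-Ab1 (0.04). H2-Eb1 differed by -1.70 (0.0052) and H2-DMa by 0.41 (0.037). In that fit 5 of the 8 genes were called, beside 210 of 14368 genes tested. Each day holds 1 library of one of the groups, so these values rest on LL replicate 5 and LBL replicate 5.

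**Figure D3:**
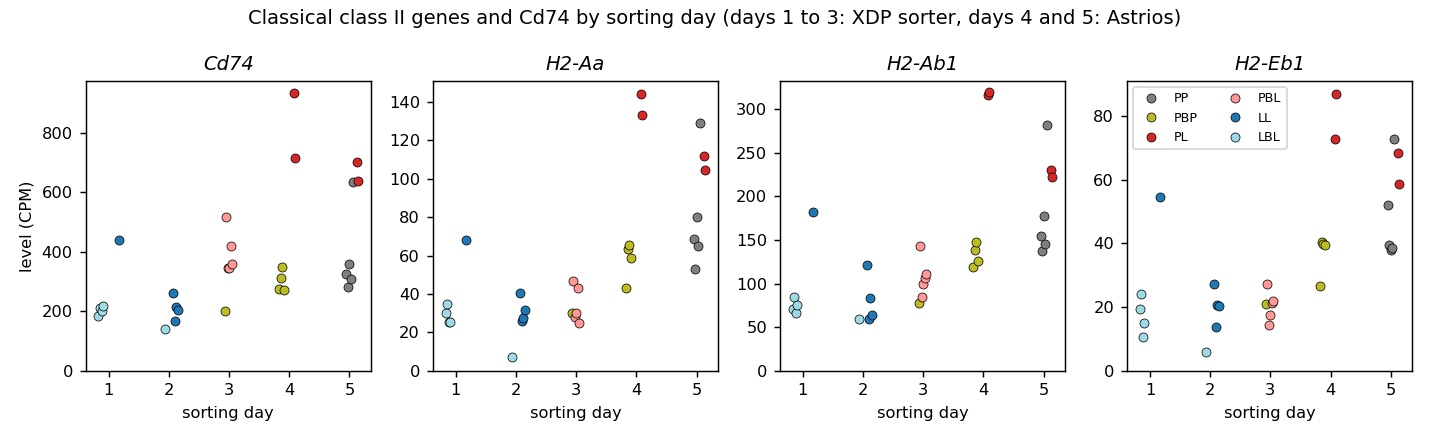
Levels of Cd74, H2-Aa, H2-Ab1 and H2-Eb1 in CPM (vertical axis, from 0) against the sorting day (horizontal axis, days 1 to 5), with 1 point per library coloured by group. On day 1 LL replicate 5 stands above the 4 LBL libraries, at 438 CPM of Cd74 against at most 218, and all libraries of days 1 to 3 lie below the PL libraries of days 4 and 5.

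Mice with 2 LPS injections were also compared with the saline groups. In LL against PP, 6 of the 8 genes were lower, where 32.1% of all genes were called and 13.2% were called lower. H2-Aa differed by -1.03 (SE 0.31, adjusted p = 0.013), H2-Ab1 by -0.81 (SE 0.24, adjusted p = 0.011), H2-Eb1 by -0.82 (SE 0.31, adjusted p = 0.043), Cd74 by -0.57 (SE 0.22, adjusted p = 0.048), H2-DMa by -0.32 (SE 0.09, adjusted p = 0.0084) and H2-DMb2 by -0.62 (SE 0.22, adjusted p = 0.026). Only H2-DMa and H2-DMb2 had groups that did not overlap, as for 22.3% of all genes tested. Without PP replicate 5 only H2-DMa was called, and Cd74 differed by -0.31 (adjusted p = 0.23), H2-Aa by -0.78 (0.051), H2-Ab1 by -0.59 (0.051), H2-Eb1 by -0.62 (0.13) and H2-DMb2 by -0.48 (0.098). The Cd74 call was also lost without PP 3 (adjusted p = 0.061) or any 1 of LL 1 to 4 (0.07 to 0.15), that of H2-Eb1 without PP 1 (0.075) or any 1 of LL 1 to 4 (0.065 to 0.13), and that of H2-DMb2 without LL 5 (0.089). The number of class II genes called also varied with the method. It was 6 with limma voom, 5 with the replicate number as a block, and 4 with DESeq2, RLE size factors or the RNA quality number. It was 3 without the low-count filter or with only the groups compared. Over all genes these fits called 4909 to 5758. With the sorter in the fit no class II gene was called, Cd74 differed by 0.021 and H2-Aa by -0.09, and H2-DMa turned to 0.11. In the same comparison 10 of 10 neuron markers and 4 of 8 astrocyte markers were higher and 8 of 10 microglia markers lower, and their part was not tested.

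In the repopulated groups, LBL against PBP, 5 of the 8 genes were lower, where 28.2% of all genes were called and 13.6% were called lower. H2-Eb1 differed by -1.14 (SE 0.32, adjusted p = 0.0081), H2-Aa by -1.08 (SE 0.32, adjusted p = 0.012), H2-Ab1 by -0.77 (SE 0.24, adjusted p = 0.019), H2-DMa by -0.30 (SE 0.09, adjusted p = 0.014) and H2-DMb2 by -0.88 (SE 0.21, adjusted p = 0.0021). The groups did not overlap for H2-DMb2, as for 17% of all genes tested. Cd74 differed by -0.56 (SE 0.22, adjusted p = 0.058) and was called without PBP replicate 5, at -0.66 (adjusted p = 0.025). Without PBP 3, H2-Ab1 at -0.70 (adjusted p = 0.053) and H2-DMa at -0.24 (0.065) were not called, and without LBL 2 H2-DMa at -0.26 (0.051) was not. With the sorter in the fit none of the 8 was called, H2-Aa differed by -0.29 and H2-DMb2 by -0.96, and H2-DMa turned to 0.055. Here 5 of 10 neuron markers and 3 of 8 astrocyte markers were higher and 7 of 10 microglia markers lower, and their part was not tested. LL and LBL share their control groups with the comparisons above, so these values are not separate evidence.

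Within groups, the invariant chain and the classical chain genes went up and down together from library to library. After the group means were subtracted, Pearson's r over the 29 libraries was 0.93 between Cd74 and H2-Ab1, 0.83 between Cd74 and H2-Aa, 0.80 between Cd74 and H2-Eb1, 0.88 between H2-Aa and H2-Eb1, 0.82 between H2-Ab1 and H2-Eb1 and 0.76 between H2-Aa and H2-Ab1. Against these 4 genes, H2-DMa, H2-DMb1, H2-DMb2 and Ciita had r between -0.16 and 0.27. H2-DMa and H2-DMb1 had an r of 0.55 with each other, and H2-DMa and Ciita one of -0.53. These are descriptions over libraries that share depth and composition, and PP replicate 5 and LL replicate 5 carry much of the spread. LBL replicate 5 adds to it as the lowest of its group, at 7.23 CPM of H2-Aa and 5.93 CPM of H2-Eb1. The sorting day was not subtracted, and LL replicate 5, LBL replicate 5 and PBP replicate 5 were each alone of their group on their day.

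The proportions within the set were not the same in every group. For each H2-Ab1 count, Cd74 had a median of 2.09 counts in PP and 2.31 in PBP. After a first LPS injection the median was 2.91 in PL and 3.62 in PBL, and after a second it was 2.58 in LL and 2.60 in LBL. The PBL libraries, at 3.23 to 4.10, lay above all libraries of the other groups, so PBL was high in Cd74 for its level of H2-Ab1. For each H2-Ab1 count, H2-Aa had a median of 0.45 counts in PP, 0.44 in PBP and 0.46 in PL. The medians were 0.33 for PBL, 0.37 for LL and 0.38 for LBL, with libraries from 0.22 to 0.41 in PBL, from 0.33 to 0.50 in LL and from 0.12 to 0.43 in LBL. The PL libraries, at 0.42 to 0.49, lay above PBL, and all other pairs of these 3 groups with PP, PBP and PL overlapped. These ratios were not tested.

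The 8 genes most like the mean log2 level of Cd74, H2-Aa, H2-Ab1 and H2-Eb1 over the 29 libraries were led by Ccl8, a chemokine gene, with a Pearson's r of 0.80 at a mean of 0.91 CPM. Of the others, Alas1 had an r of 0.75, and Ywhae, Ubb, Card19, Gm6474 and Sh3bgrl had between 0.72 and 0.73. With group means subtracted the 8 were different, namely Srsf2 at 0.68, Zcchc10, Pnrc2, Rfc3, Pcgf2, Itpripl1, Lrrc58 and Nus1 at 0.63. Pairs of the 4 genes had r between 0.80 and 0.97 over the same 29 libraries, and Ccl8 at 0.7996 was close to the lowest pair at 0.8002. With group means subtracted the pairs had r between 0.76 and 0.93, above the 8 genes of that scale. A pair sets gene against gene, while the r of the genes named here are to the mean of 4 genes. These genes were picked as the highest of 16632.

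**Figure D4:**
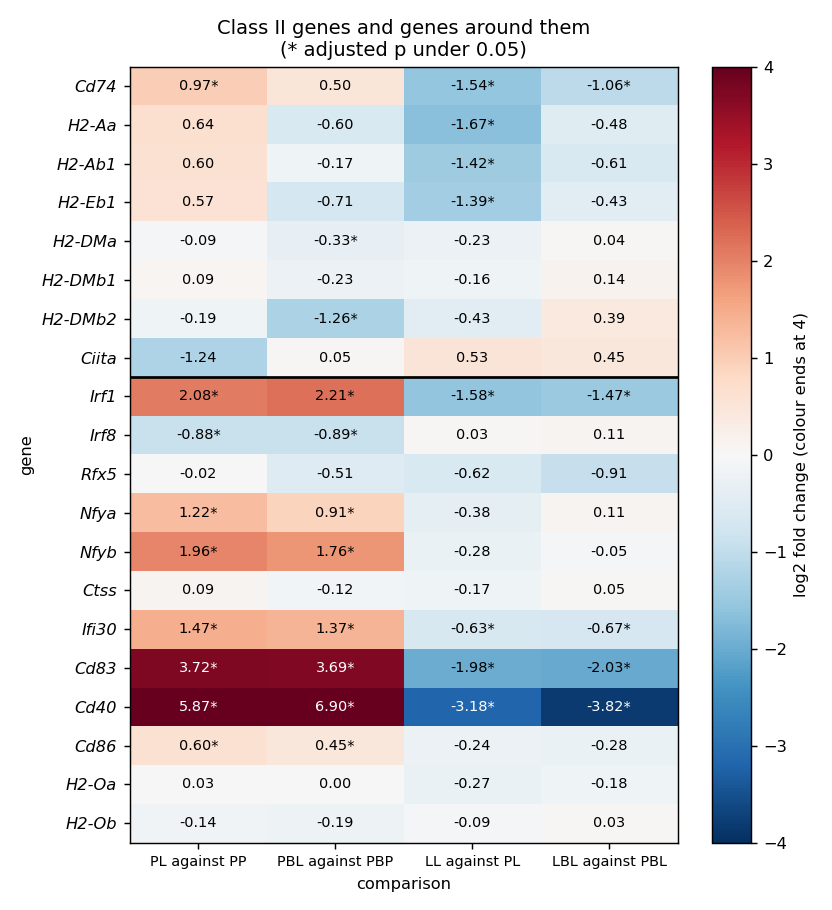
Log2 fold changes of the class II genes (above the line) and of genes around them (below it) in the 4 LPS comparisons, as numbers and colour from -4 to 4, with a star for an adjusted p under 0.05. Irf1, Cd83 and Cd40 are positive in both first-LPS columns and negative in both repeated-LPS columns, while Ctss and H2-Oa carry no star.

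The genes around the class II set were read from lists chosen by role. Of all genes tested, 26.2% were called in PL against PP and 43.1% in PBL against PBP. In LL against PL 2.78% were called, and 6.74% in LBL against PBL. Rises and falls below are differences between groups. LL and PL shared no day or sorter, LBL and PBL shared no day, and PBL differed in both from PBP replicates 1 to 4. With the sorter in the fit 11 genes in all were called in LL against PL, and these lists were not read in that fit. Of 11 tested genes of interferon-gamma signalling to Ciita, 5 rose and 1 fell in PL against PP, and 6 rose and 2 fell in PBL against PBP. The median log2 differences were 0.44 and 0.67, beside 0.00 over all genes in each. Irf1, the transcription factor that acts on the inducible Ciita promoter, averaged 51.5 CPM with an SD of 4.4 over the 5 PP libraries and 217 CPM with an SD of 73 over the 4 PL libraries, a log2 difference of 2.08 (SE 0.18, adjusted p = 1.7e-11), and it rose by 2.21 in PBL against PBP (adjusted p = 1.3e-12). Jak1, Irf2 and Ptpn2 rose in both comparisons. Irf8, a myeloid lineage factor, fell by 0.88 and 0.89. Socs1, an inhibitor of this signalling, rose by 2.06 in PBL against PBP (adjusted p = 0.00095), and its difference between the 2 responses was 1.62 (SE 0.71, adjusted p = 0.34). Ifng itself had 0 counts in all 29 libraries, which at 3 counts over a group allows up to 0.0756 CPM in PP and 0.101 CPM in PL, for counting error only.

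Repeated LPS went with lower Irf1. In LL against PL, 5 of these 11 genes were lower and 0 higher, where 2.03% of all genes were called lower. Irf1 differed there by -1.58 (SE 0.18, adjusted p = 1.4e-06). In LBL against PBL, 4 of 11 were lower and 0 higher, where 4% of all genes were called lower. There Irf1 differed by -1.47 (SE 0.17, adjusted p = 2.3e-07), Socs1 by -2.32 and Irf2 by -0.27. Irf1 was thus lower in both settings, and in both the day and the group cannot be told apart. Against the saline groups Irf1 was higher, by 0.50 in LL against PP (adjusted p = 0.021) and by 0.73 in LBL against PBP (adjusted p = 0.0011). There H2-Aa, H2-Ab1 and H2-Eb1 were lower in the same fit. None of these 3 was called with the sorter in the fit, or in LL against PP without PP replicate 5. Irf1 was not read in those fits.

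Of the 7 factors that bind class II promoters, the NF-Y subunit genes Nfya and Nfyb rose in PL against PP, by 1.22 (SE 0.13, adjusted p = 4.2e-09) and 1.96 (SE 0.16, adjusted p = 8.3e-12), and no factor fell. In PBL against PBP the same 2 rose, by 0.91 and 1.76, and Creb1 at -0.49 and Rfxap at -1.26 fell. Rfx5, the DNA-binding subunit of RFX, differed by -0.02 (SE 0.38, adjusted p = 0.98) in PL against PP and by -0.51 (SE 0.36, adjusted p = 0.26) in PBL against PBP. None of the 7 was called in LL against PL, where Rfx5 differed by -0.62 (SE 0.39, adjusted p = 0.46), and 1 of 7, Creb1 at -0.49, was lower in LBL against PBL.

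Of the 11 genes that process antigen and the invariant chain, Ifi30, a thiol reductase of the endosome, rose by 1.47 in PL against PP (SE 0.14, adjusted p = 2.3e-10) and by 1.37 in PBL against PBP, and fell by 0.63 in LL against PL and by 0.67 in LBL against PBL. Ctsh fell by 0.25 and 0.38 in the first-LPS comparisons, and Lgmn fell by 0.25 in PBL against PBP. Ctss, the cathepsin that makes the last cuts in the invariant chain, was not called in any of the 4, at 0.09, -0.12, -0.17 and 0.05. The list had 1 gene higher and 1 lower in PL against PP, 1 and 2 in PBL against PBP, and 0 and 1 in each repeated-LPS comparison.

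T cells need co-stimulators beside class II. The list read here holds co-stimulator genes together with Cd274 and Pdcd1lg2, genes of inhibitory ligands, and its counts take both kinds together. Of 5 tested, 4 rose in each first-LPS comparison, with Cd40, the receptor for CD40 ligand, at 5.87 (SE 0.64, adjusted p = 2.3e-08) and 6.90 (SE 0.67, adjusted p = 2e-09). Cd274, the gene of PD-L1, rose by 2.01 and 2.06, Icosl by 0.98 and 0.67 and Cd86 by 0.60 and 0.45. In LL against PL 3 of 5 were lower, Cd40 at -3.18, Cd274 at -1.31 and Icosl at -0.61. In LBL against PBL 4 of 5 were lower, Cd40 at -3.82, Cd274 at -0.92, Cd80 at -0.80 and Icosl at -0.36.

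Cd83, whose product keeps class II on the surface by opposing MARCH1, rose by 3.72 in PL against PP (SE 0.28, adjusted p = 5.8e-11) and by 3.69 in PBL against PBP, and fell by 1.98 in LL against PL and by 2.03 in LBL against PBL. Marchf1, the ubiquitin ligase that removes class II from the surface, rose by 0.38 in PL against PP and by 0.48 in LBL against PBL. H2-Oa and H2-Ob, the chains of the H2-O inhibitor of H2-DM, were not called in any comparison, and H2-Eb2 had at most 3 counts in a library and was not tested.

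Markers of other cells that hold class II were read in the same libraries. Border-associated macrophages were represented by 10 markers, 9 of them tested, led by Mrc1 and F13a1, and none had a median count of 0. Their summed level lay between 60.1 and 126 CPM in PP, 96.2 and 163 CPM in PL and 58.3 and 97.4 CPM in LL. With depletion it lay between 32.6 and 50.2 CPM in PBP, 21.9 and 36.6 CPM in PBL and 13.2 and 25.9 CPM in LBL. Of the 9 tested, 7 were lower in PBL against PL and 7 in LBL against LL, 2 in PBP against PP and in PBL against PBP, and 0 in PL against PP, LL against PL and LBL against PBL. In PBL against PL these markers were thus lower together with 5 class II genes, and their part in the class II differences was not tested. In PP replicates 3 and 5 had the most of these markers, 126 CPM each, and the most of Cd74, H2-Aa, H2-Ab1 and H2-Eb1 together, 653 and 1117 CPM. PL replicate 1 was the highest of all 29 libraries in both, at 163 and 1468 CPM. In LL replicate 5 the markers were the lowest of the group at 58.3 CPM and these 4 genes the highest at 744 CPM.

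**Figure D5:**
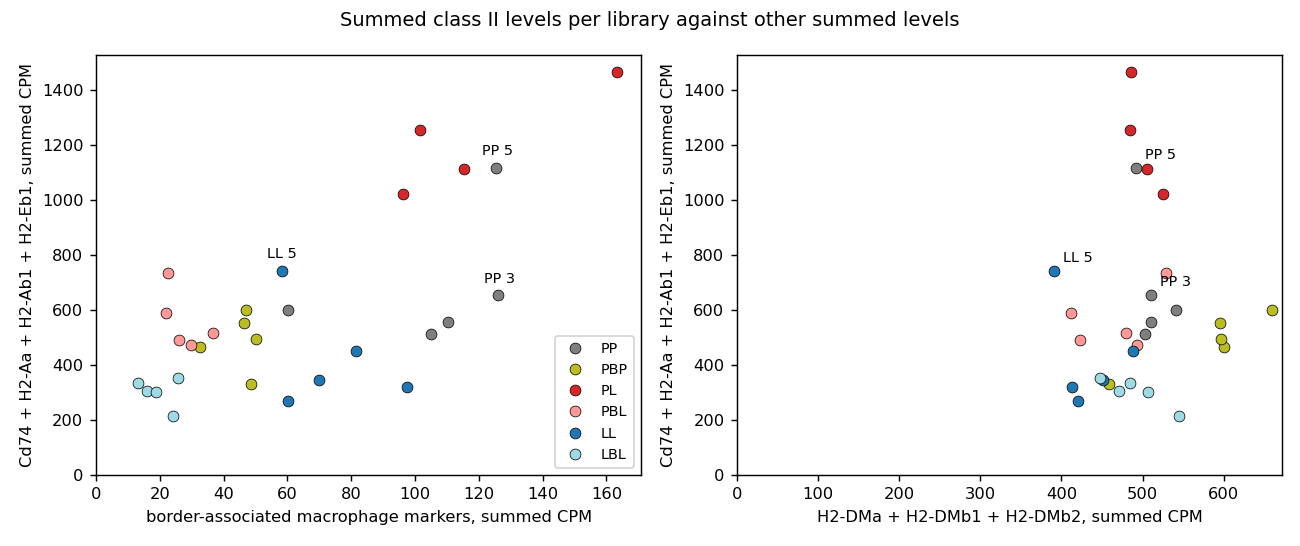
Summed level of Cd74, H2-Aa, H2-Ab1 and H2-Eb1 in CPM (vertical axes) against the summed border-associated macrophage markers (left) and the summed H2-DM genes (right), with 1 point per library coloured by group. PL replicate 1 is highest on both axes of the left panel, LL replicate 5 stands at 744 CPM on the vertical axis and 58.3 CPM of markers, and PP replicates 3 and 5 share 126 CPM of markers at 653 and 1117 CPM of class II.

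Dendritic cell markers, led by Fscn1 and Batf3, which microglia also express, summed to between 273 and 348 CPM in PP, 171 and 326 CPM in PL and 100.005 and 204 CPM in LL. With depletion they summed to 204 to 424 CPM in PBP, 175 to 271 CPM in PBL and 98.9 to 175 CPM in LBL. Clec9a, a marker of cross-presenting dendritic cells, had a median count of 0. Of the 8 tested, 2 rose in PL against PP, 3 rose and 1 fell in PBL against PBP, 0 were called in LL against PL, and 2 fell in LBL against PBL, and their part in the class II differences was not tested.

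Of 10 B cell markers, Pax5 had 0 counts in all 29 libraries, and Cd79a, Ms4a1, Ly6d and Fcmr had a median of 0. The most abundant were Ighm and Cd79b, and the list summed to between 796 and 971 CPM in PP, 327 and 364 CPM in PL and 299 and 408 CPM in LL. With depletion it summed to 478 to 749 CPM in PBP, 161 to 267 CPM in PBL and 209.6 to 264 CPM in LBL. All 10 T and NK cell markers, Cd3e, Cd3d, Cd3g, Trac, Cd4, Cd8a, Ncr1, Klrb1c, Gzma and Nkg7, had a median count of 0 and summed to at most 1.67 CPM. Monocyte markers, with Ccr2 and Chil3 the most abundant and Ly6c2, Chil3, Hp, F10 and S100a4 at a median of 0, summed to 24.2 to 89.7 CPM in PBL and to at most 33.5 CPM elsewhere. Neutrophil markers, led by Ngp and S100a8, with Camp, Ltf, Retnlg and Mmp8 at a median of 0, summed to 127 to 484 CPM in PBL and to at most 35.1 CPM elsewhere. The PBL libraries also had 3.23 or more Cd74 counts for each H2-Ab1 count, as given above, and the part of these cells in that was not tested.

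The 2 libraries high in class II were also unlike the rest of their groups in other lists. The neuron markers, led by Meg3 and Snap25, summed to 202 CPM in PP replicate 5 and to 43.1 to 101 CPM in the other PP libraries. In LL replicate 5 they summed to 1124 CPM and to 258 to 599 CPM in the other LL libraries. The microglia markers, with P2ry12 among the most abundant, were the lowest of their groups in the same 2 libraries, at 60003 CPM in PP and 40953 CPM in LL. In PBP replicate 5 the neuron sum was 702 CPM, the highest of its group, with the lowest sum of the 4 class II genes, 330 CPM. LL replicate 5 was the only LL library sorted on day 1, where the 4 LBL libraries had neuron sums of 564 to 996 CPM. PBP replicate 5 was the only PBP library sorted on day 3, where the PBL libraries had neuron sums of 615 to 1063 CPM. Astrocyte markers, led by Slc1a3 and Aldoc, summed to 384 to 590 CPM in PP and PBP and to 662 to 1020.3 CPM in the LPS groups. The RNA quality numbers were 8.6 in PP replicate 5 and 8.9 in LL replicate 5, and the part of any of these in the class II levels was not tested.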

How the data were processed

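The deposited table holds raw read counts per gene, deposited without normalization. The submitters' processing notes name HTSeq 0.11.0, TopHat, cutadapt 2.10, Picard 2.13.2, SAMtools 1.10 and FastQC 0.11.9, with the build GRCm39 and no role or order. No annotation release or strand setting is stated in these sources, so reads of overlapping or antisense genes cannot be told apart. The RNA quality number is a score that the authors deposited with the sorting day, instrument and RNA concentration of each library.

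The test was edgeR 4.0.16 under R 4.3.3. The filterByExpr defaults left 16632 genes, TMM scaled the libraries, and a robust quasi-likelihood model with 1 coefficient per group was fitted to all 29 libraries (23 residual degrees of freedom, biological coefficient of variation 0.26). P-values are two-sided with Benjamini-Hochberg adjustment over all genes tested, and an adjusted p under 0.05 was called. No pair of libraries of one group agreed within sampling noise: over 56 pairs the chi-square per degree of freedom was 5.47 to 32.5, so each library counted as 1 sample. The fit was tested on simulated data. Alternatives were DESeq2 1.42.0, voom in limma 3.58.1, other size factors, no filter, only the groups compared, the sorter or RNA quality number as a term, a replicate block, values within a day or sorter, and leaving out each library. Leaving out PP replicate 5 and LL replicate 5 together was added after seeing the data.

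All 8 class II genes are named throughout. Pathway genes are named where called, up to 6 per list by smallest p, with Ifng, Irf1, Rfx5 and Ctss always. Of each marker list, genes with a median count of 0 and the 2 most abundant are named. Some genes that these rules name are not reported here. The 8 genes and the lists were chosen with earlier results of these data known. Levels per kilobase use the median protein-coding transcript length in GENCODE M21. Log2 levels for correlations used a prior count of 2.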

Additional observations from a re-analysis of the deposited data

Results flagged for a closer look

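In PP, replicate 5 lay far from the other 4 libraries for Cd74, at 634 CPM where the next library had 358, a gap of 0.785 of the range of the group. The same library was apart for H2-Ab1, at 281 CPM beside 177 (gap 0.721 of the range), and for Ciita, at 2.39 CPM beside 1.12 (gap 0.713 of the range). The gaps exceed Dixon's critical value for groups of this size. Over 48 gene and group combinations this test marks about 1 in 20 by chance.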

How the results depend on the processing

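LL against PL called 4 class II genes and LBL against PBL 1 (Cd74) whichever library was left out, and PBP against PP, LBL against LL and both differences of response called 0. Leaving out 1 library gave 1 to 3 class II genes called in PL against PP, 2 to 4 in PBL against PBP, 4 to 5 in PBL against PL, 1 to 6 in LL against PP and 3 to 6 in LBL against PBP. Over all genes it gave 276 to 526 called in LL against PL, 669 to 1189 in LBL against PBL, 49 to 105 in PBP against PP (124 without both PP replicate 5 and LL replicate 5), 2326 to 4098 in PBL against PL, 85 to 284 in LBL against LL, 0 to 740 in the difference of first LPS responses and 0 to 23 in that of earlier LPS effects. The cause of these moves was not tested.

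With the sorter in the fit, class II genes called were 0 in LL against PL, PBL against PL, LL against PP and LBL against PBP and 1 in PBL against PBP, and all genes called were 11, 3, 1181, 1609 and 2224, with 330 in LBL against LL and 0 in the difference of earlier LPS effects. Signs turned there for Cd74 in LL against PP (0.021) and in the differences of first responses (0.016) and earlier effects (-0.11). They turned for H2-Aa (0.19) and H2-Ab1 (0.48) in PBL against PBP. H2-DMa turned in PBL against PBP (0.018), LBL against PBP (0.055), LL against PL (0.20), LL against PP (0.11) and the differences (0.10 and -0.16). H2-DMb1 turned in PBL against PBP (0.13), LBL against PBP (0.27), LL against PL (0.27), LL against PP (0.36), PBL against PL (0.14) and the differences (0.047 and -0.14). Ciita turned in PBL against PBP (-0.81), LBL against PBP (-0.36), LL against PL (-0.64), PBL against PL (-0.066) and the difference of earlier effects (1.09). Within one sorter, PBL against PBP called 1 class II gene and 2057 genes and LBL against PBP 0 and 1525. There H2-Aa (0.22), H2-Ab1 (0.50), H2-DMa (0.037), H2-DMb1 (0.15) and Ciita (-0.79) turned in PBL against PBP, H2-DMa (0.10), H2-DMb1 (0.32) and Ciita (-0.32) in LBL against PBP, and Cd74 (0.029), H2-DMa (0.12) and H2-DMb1 (0.062) in the difference of first responses. All of these turned values had adjusted p-values of 0.34 or more. Within sorting days 1 and 2, LBL against LL called 5 class II genes, beside 210 of 14368 genes tested.

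With only the groups compared, class II genes called were 4 in PL against PP (beside 4086 of 13867 genes tested), 5 in PBL against PBP (beside 5935 of 14249), 2 in LBL against PBL (beside 1300 of 14355) and 3 in LL against PP (beside 4937 of 13916), with 35 genes in the difference of earlier effects. With the RNA quality number they were 3 in PL against PP and 2 in LBL against PBL, with 638 genes in LBL against PBL, 2297 in PBL against PL, 326 in LBL against LL and 0 in the difference of earlier effects. There Ciita (-0.17) and H2-Ab1 (0.17) turned in PBL against PBP, H2-DMb1 (-0.0008) in LBL against LL and Ciita (0.0902) in the difference of earlier effects. Limma voom called 3 class II genes in PL against PP and 0 genes in the difference of earlier effects, where Ciita was 0.30. DESeq2 called 1 class II gene in LBL against LL, and 430 genes there, 717 in LL against PL, 276 in PBP against PP, 63 in the difference of first responses and 31 in that of earlier effects. Without the filter, LL against PP called 3 class II genes, LBL against LL 126 genes and the differences 11 and 0, and H2-DMa in PBL against PL was -0.007. With RLE size factors the differences called 1 and 0 genes. Without PP replicate 5 and LL replicate 5 together, an alternative added after seeing the data, PL against PP called 4 class II genes and the difference of earlier effects 0 genes.

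Replicate numbers did not mark a shared source: deviations of same-numbered libraries had a median correlation of 0.01 (-0.31 to 0.37). With the replicate number as a block, 2 class II genes were called in PL against PP (H2-Ab1 at 0.69, adjusted p = 0.05), and 2 and 1 genes in the differences of first responses and earlier effects. Under the block Ciita turned in PBL against PBP (-0.044) and in the difference of earlier effects (0.48).

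Leaving out 1 library turned only values near 0: Ciita in the difference of earlier effects (-0.34 to 0.39), in PBL against PBP (-0.42 to 0.37) and in PBP against PP (-0.49 to 0.25), H2-DMa in LBL against PBL (-0.0083 to 0.094) and PBL against PL (-0.051 to 0.064), and H2-DMb1 in PBP against PP (-0.028 to 0.094) and LBL against LL (-0.065 to 0.066). Ciita, with 2 to 21 counts a library, is limited by depth.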
